A study of Mus musculus with 9 samples.

Results

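The proteasome genes of the mouse testis were taken as every gene whose symbol is Psm followed by a letter from a to g and a digit, which held 51 of the 22337 genes measured. They comprised Psma8 of the germ-cell proteasome, the 7 other genes of the 20S alpha ring, 3 standard catalytic and 4 structural genes of the 20S beta ring, 3 immunoproteasome genes, the thymus gene Psmb11, 6 ATPase and 11 non-ATPase genes of the 19S particle, 6 activator and inhibitor genes and 7 assembly chaperones. The remaining 2, Psmc3ip and Psme3ip1, carry the name but are not subunits: Psmc3ip is a partner protein of the meiotic recombinases and Psme3ip1 a protein that binds the activator Psme3. Whole testes of 3-week-old mice were studied by RNA sequencing: 3 were wild-type (WT-WT), 3 Piwil4 WT/R264W (WT-KI) and 3 Piwil4 R264W/R264W (KI-KI). The knock-in allele R264W replaces an arginine of PIWIL4, a protein that is guided by piRNAs to transposons in male germ cells, and was made with CRISPR-Cas9 in C57BL/6 zygotes; the wild-type mice do not carry it and no group was treated. The labels number the libraries within a genotype without saying whether litters were shared, so p-values measure the spread between these testes.

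The proteasome degrades proteins that carry ubiquitin chains. Its 20S core is a barrel of alpha and beta rings, in which 3 beta subunits cut the protein chain, and its 19S cap holds the ATPases that unfold a substrate and the subunits that bind and remove ubiquitin. Immune cells, and cells exposed to interferon, replace the cutting subunits with the immunoproteasome subunits Psmb8, Psmb9 and Psmb10. Meiotic and postmeiotic male germ cells use PSMA8 in the place of PSMA7 in the alpha ring, and the activator PSME4 takes part in the removal of histones in elongating spermatids. In RNA of a whole testis, fewer cells of a type and less RNA per cell cannot be told apart.

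Library totals of estimated counts ran from 17.96 M to 24.3 M (median 20.2 M), so that 3 counts, the most that a count of 0 allows, were 0.124 to 0.167 CPM (read counts brought to a common library size); this floor covers counting error only. The 51 genes took between 0.599% and 0.636% of the counts in the 9 libraries. Psmb11 had at most 3 counts and Psme2b, a near copy of Psme2, at most 1.19 in any library, and these 2 did not pass the filter on low counts. The other 49 passed it and were tested. Of 14 spermatogonial, 19 pachytene spermatocyte, 14 Sertoli cell and 10 Leydig cell markers, none was at 0 in every library. At 3 weeks the first wave of spermatogenesis is under way, and the testes differed in how far it had come. This was measured as a round spermatid score, the mean log2 CPM of 20 genes of haploid germ cells, none of them a proteasome gene. From low to high the score was 2.01 in Piwil4 WT/R264W replicate 3, 2.43 in wild-type replicate 3, 3.36 in Piwil4 R264W/R264W replicate 1, 3.46 in wild-type replicate 2, 4.35 in Piwil4 WT/R264W replicate 2, 4.36 in Piwil4 R264W/R264W replicate 2, 5.27 in Piwil4 WT/R264W replicate 1, 5.97 in Piwil4 R264W/R264W replicate 3 and 6.11 in wild-type replicate 1. Each genotype thus held testes with low and high scores, and the score was used as a number and never to form groups.

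Nearly all proteasome genes were read at a high level in the testes. On the FPKM scale, which is per transcript length and so can be compared between genes, Psmc3, an ATPase of the 19S base, was highest at 399 ± 34.3 FPKM (SD, n = 9 testes). It was followed by Psmd2, a scaffold subunit of the base, at 238 ± 5.11 FPKM and by Psmd8, a subunit of the lid, at 184 ± 15.2 FPKM. Psma8 was the fourth of the 51 at 160 ± 17.8 FPKM. Its values overlapped those of its neighbours in that order: Psmd8 above it, and Psmd4, the ubiquitin receptor of the 19S particle, at 134 ± 5.49 FPKM and Psma6 at 131 ± 22.0 FPKM below it.

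By role, the 7 other genes of the alpha ring had mean levels between 22.4 FPKM (Psma2) and 131 FPKM (Psma6), with a median of 60.7 FPKM. In CPM, which is not per length, the median of Psma2 was 66.5, above the 54.1 of Psma7. Psma2 also overlaps another coding gene on its own strand, so its low FPKM is less certain. The standard catalytic genes lay between 77.7 FPKM (Psmb5) and 120 FPKM (Psmb6), and the structural beta genes between 57.8 FPKM (Psmb2) and 123 FPKM (Psmb4). The 19S genes lay between 39.5 FPKM (Psmc4) and 399 FPKM (Psmc3) for the ATPases and between 47.9 FPKM (Psmd14) and 238 FPKM (Psmd2) for the others. Subunits that stand in the assembled particle in equal number were thus read at levels that differed several-fold. The assembly chaperones, which leave the particle once it is built, were lower, between 7.11 FPKM (Psmd5) and 35.9 FPKM (Psmg2). Among the activators, Psme4 was highest at 107 FPKM and Psme1 stood at 15.2 FPKM. The 3 immunoproteasome genes were the lowest of the 49, between 0.546 FPKM (Psmb9) and 3.00 FPKM (Psmb10).

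**Figure D1:**
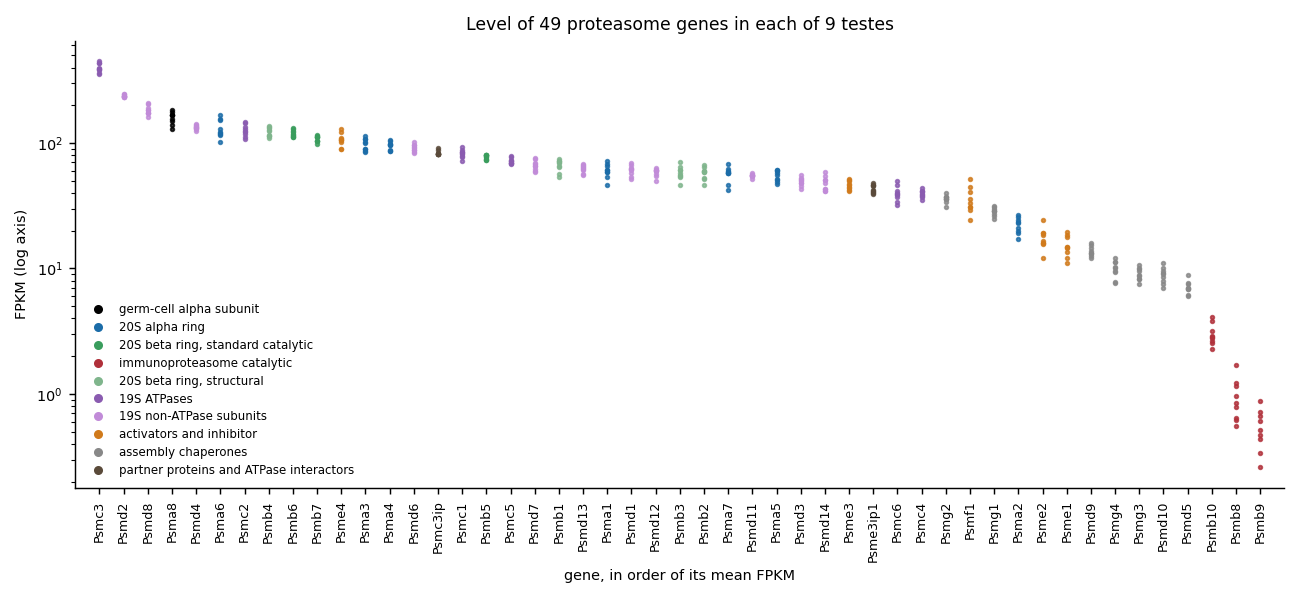
Level of each of the 49 proteasome genes that passed the filter, in FPKM on a log axis; each point is 1 of 9 testes, genes stand in order of their mean and colours give the role. Psmc3 is highest at 399 FPKM, Psma8 averages 160 FPKM, and the immunoproteasome genes Psmb10, Psmb8 and Psmb9 stand apart at the low end, at 3.00, 0.944 and 0.546 FPKM.

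The spread between testes was small for most members. The highest library exceeded the lowest by 1.06-fold for Psmd2 and by 1.103-fold for Psmb5 on the FPKM scale. Among genes above 10 FPKM it was widest for Psmf1, at 2.13-fold, and Psme2, at 2.02-fold. In CPM, the coefficient of variation over 9 testes had a median of 5.59% among the 19S non-ATPase genes. Its median was 33.3% among the immunoproteasome genes, which rested on few reads: Psmb8 had 12 to 29 counts and Psmb9 6 to 22 counts per library.

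Psma8 (ENSMUSG00000036743) and Psma7 (ENSMUSG00000027566) encode alternative subunits for one position of the alpha ring. Psma8 was read at 139, 149 and 185 FPKM in wild-type replicates 1 to 3, at 155, 168 and 176 FPKM in the Piwil4 WT/R264W testes and at 167, 168 and 130 FPKM in the Piwil4 R264W/R264W testes. Psma7 was read at 41.9, 57.7 and 59.9 FPKM in wild-type, at 57.4, 57.7 and 68.4 FPKM in Piwil4 WT/R264W and at 58.7, 62.1 and 46.1 FPKM in the Piwil4 R264W/R264W testes. Psma8 was the higher of the pair in 9 of 9 testes, by 2.57- to 3.32-fold (median 2.81-fold). It therefore made up 72.0% to 76.8% of the FPKM of the pair, and the genotypes overlapped in this share, with means of 74.8% ± 2.45 in wild-type, 73.1% ± 1.20 in Piwil4 WT/R264W and 73.6% ± 0.496 in Piwil4 R264W/R264W testes (SD, n = 3 each). An exact two-sided permutation test of the log2 ratio, which cannot go below p = 0.1 with 3 testes a group, gave p = 0.5 for Piwil4 R264W/R264W against wild-type, p = 0.6 for Piwil4 R264W/R264W against Piwil4 WT/R264W and p = 0.3 for Piwil4 WT/R264W against wild-type.

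The immunoproteasome genes stood far below the standard genes whose place they can take. Psmb8 (ENSMUSG00000024338), which stands in for the chymotrypsin-like subunit Psmb5, was read at 0.85, 0.62 and 0.96 FPKM in the wild-type testes, at 0.56, 0.79 and 1.69 FPKM in the Piwil4 WT/R264W testes and at 1.16, 1.23 and 0.64 FPKM in the Piwil4 R264W/R264W testes. Psmb5 lay between 73.3 and 80.9 FPKM in the same 9 testes. The genotypes overlapped, and Psmb8 made up 0.747% to 2.07% of the pair. Psmb9, the counterpart of the caspase-like subunit Psmb6, made up 0.231% to 0.663% of its pair, with 0.26 to 0.88 FPKM beside 111 to 132 FPKM. Psmb10, the counterpart of the trypsin-like subunit Psmb7, made up 2.16% to 3.54% of its pair, with 2.29 to 4.08 FPKM beside 98.8 to 116 FPKM. Summed, the standard genes exceeded the immunoproteasome genes by 48.8- to 83.7-fold, and the latter held 1.18% to 2.01% of the FPKM of the 6 genes. That share was highest in the testis with the lowest round spermatid score (2.01%) and lowest in the testis with the highest score (1.18%), but the testes between them were not in order: wild-type replicate 2, at a score of 3.46, had 1.25%, and Piwil4 R264W/R264W replicate 2, at a score of 4.36, had 1.69%.

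Across the 9 testes, 4 log2 ratios were set against the score, with exact two-sided permutation tests and adjustment over the 4. The Psma8 to Psma7 ratio had Pearson r = 0.37 (exact p = 0.332, adjusted 0.332) and Spearman rho = 0.32 (exact p = 0.41, adjusted 0.41), and r = 0.56 without the 2 testes farthest from the median score. The Psmb8 to Psmb5 ratio had r = -0.62 (exact p = 0.0785, adjusted 0.314), rho = -0.58 (exact p = 0.108, adjusted 0.355) and r = -0.35 without the 2 testes. For Psmb9 to Psmb6 r was -0.38 (exact p = 0.306, adjusted 0.332), rho -0.50 (exact p = 0.178, adjusted 0.355) and r without the 2 testes -0.19. For Psmb10 to Psmb7 r was -0.49 (exact p = 0.182, adjusted 0.332), rho -0.40 (exact p = 0.291, adjusted 0.388) and r without the 2 testes -0.39. None of the 4 passed the test. With single testes left out, r ran from 0.0069 (without wild-type replicate 1) to 0.6555 (without wild-type replicate 3) for Psma8 to Psma7 and from -0.73 to -0.41 for Psmb8 to Psmb5. It ran from -0.66 to -0.24 for Psmb9 to Psmb6 and from -0.68 to -0.19 for Psmb10 to Psmb7.

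**Figure D2:**
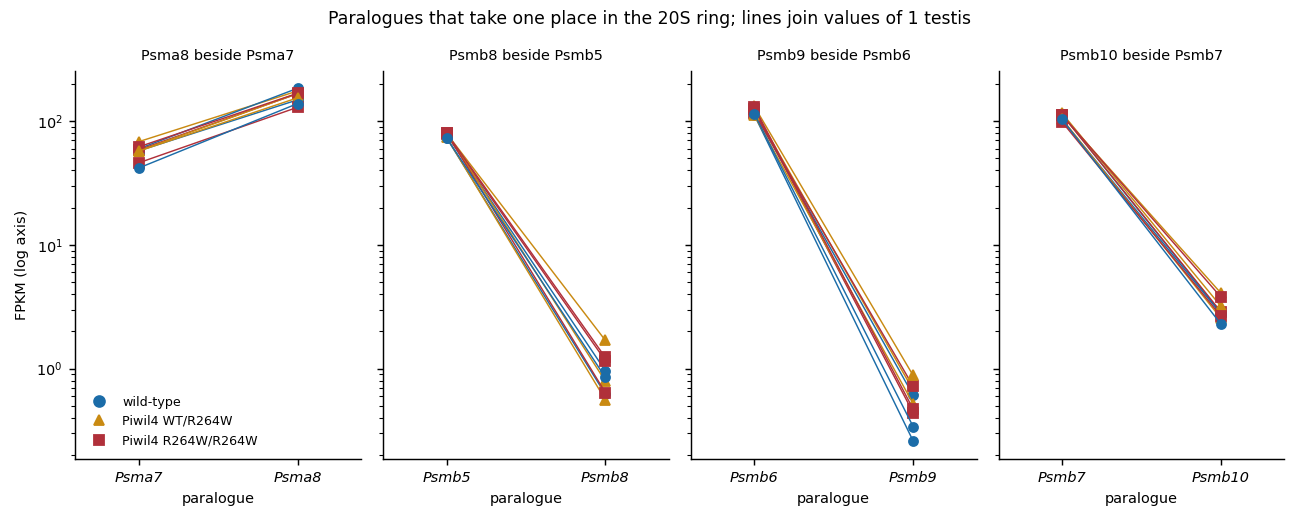
FPKM, on a log axis, of 4 pairs of paralogues that can take the same place in the 20S core; each line joins the values of 1 testis, and symbols give the genotype. Psma8 lies above Psma7 in all 9 testes, by 2.57- to 3.32-fold, while Psmb8, Psmb9 and Psmb10 lie below Psmb5, Psmb6 and Psmb7, at no more than 3.54% of a pair.

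Immune cells and interferon-responsive genes of the same libraries were low as well. Of 18 interferon and antigen processing genes, which summed to 315 to 394 CPM in wild-type, 380 to 405 CPM in Piwil4 WT/R264W and 330 to 375 CPM in Piwil4 R264W/R264W testes, 17 were tested for a slope on the score; genes lower with the score included B2m and H2-K1, and Cxcl9 was higher. The 14 macrophage markers summed to 121 to 173 CPM in wild-type, 121 to 141 CPM in Piwil4 WT/R264W and 135 to 167 CPM in Piwil4 R264W/R264W testes. Among them Aif1 ran from 29 to 797 counts per library, with a slope of 1.14 on the score (edgeR adjusted p = 1.01e-09). The spread of these sums therefore cannot be read as macrophage content alone. The 12 lymphocyte markers summed to only 3.62 to 5.50 CPM over the 9 testes, although none of them was at 0 in every library. The part of these cells in the levels of Psmb8, Psmb9 and Psmb10 was not tested. Psmb9 also overlaps Tap1 on the opposite strand, and without strand-specific counting the reads of the 2 genes cannot be told apart.

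Promoters of 4 members whose levels moved with the round spermatid score are printed with their coordinates as examples. Psme4 and Psma6 rose with the score, and Psme1 and Psma7 fell. RefSeq windows of GRCm38.p6, from 250 bases before to 50 bases after a transcription start, were at hand for 43 of the 51 genes (47 windows). Capitals mark matches, on either strand, to CCGGAAG (a core bound by ETS factors), CCAAT (the NF-Y box), GAAANNGAA (from the core of the interferon response element) or TGACNNNGC (the antioxidant response element). The windows are chr11:30771525-30771824 for Psme4, chr12:55398575-55398874 for Psma6 (the window with the most matches of its 2) and chr14:55578244-55578543 for Psme1, all on the plus strand, and chr2:180042415-180042714 on the minus strand for Psma7.
Psme4: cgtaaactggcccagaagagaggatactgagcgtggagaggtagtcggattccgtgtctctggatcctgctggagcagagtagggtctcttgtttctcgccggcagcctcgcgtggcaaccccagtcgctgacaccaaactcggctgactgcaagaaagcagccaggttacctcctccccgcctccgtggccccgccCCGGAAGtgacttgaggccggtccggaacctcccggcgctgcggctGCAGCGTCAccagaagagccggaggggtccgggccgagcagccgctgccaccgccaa
Psma6: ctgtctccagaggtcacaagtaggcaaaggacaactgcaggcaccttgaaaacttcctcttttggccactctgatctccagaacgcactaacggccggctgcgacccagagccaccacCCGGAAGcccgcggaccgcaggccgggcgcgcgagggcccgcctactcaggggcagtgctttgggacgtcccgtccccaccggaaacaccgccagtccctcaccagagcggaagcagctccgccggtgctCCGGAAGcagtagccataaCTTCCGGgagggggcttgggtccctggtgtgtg
Psme1: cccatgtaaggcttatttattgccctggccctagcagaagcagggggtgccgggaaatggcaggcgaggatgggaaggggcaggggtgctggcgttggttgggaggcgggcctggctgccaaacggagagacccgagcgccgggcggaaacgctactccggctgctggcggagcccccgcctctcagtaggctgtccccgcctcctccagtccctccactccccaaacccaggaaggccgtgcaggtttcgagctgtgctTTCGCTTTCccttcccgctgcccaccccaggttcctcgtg
Psma7: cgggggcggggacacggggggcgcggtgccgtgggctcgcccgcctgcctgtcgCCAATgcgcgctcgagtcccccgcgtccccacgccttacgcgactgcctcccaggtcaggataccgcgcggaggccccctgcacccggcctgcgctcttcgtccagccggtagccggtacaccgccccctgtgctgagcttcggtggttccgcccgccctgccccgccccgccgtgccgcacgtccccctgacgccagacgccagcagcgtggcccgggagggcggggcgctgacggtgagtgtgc
Psme4 holds 1 ETS match 53 bases before the start and an antioxidant response match 7 bases before it, and in Psma6 the ETS core occurs 3 times. Psme1 holds the interferon response core just after its start, and Psma7 has 1 CCAAT box. The matches did not sort by direction among the members. The ETS core was also found for Psmc6, which fell with the score. Psmc2, which rose, held the ETS core, CCAAT and the interferon response core, and Psma6 held CCAAT in its other window. Over all windows of the members the ETS core was found in 17 of 47 (36.2%), against 8.86% of all 32851 windows of the genome. CCAAT was found in 16 (34.0% against 37.41%), the interferon response core in 7 (14.9% against 8.56%) and the antioxidant response core in 6 (12.8% against 12.39%). These matches are letters in a window, and binding was not measured.

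Proteasome genes moved both ways with the score, in a share near that of all genes. In a fit of genotype and score over all 9 testes (edgeR's quasi-likelihood test, with adjustment over the 15771 genes tested), 13 of the 49 (26.5%) had a slope with an adjusted p under 0.05, beside 28.0% of all genes. Of these, 6 were higher with the score (12.2% of the members, beside 18.2% of all genes) and 7 lower (14.3%, beside 9.78%). On FPKM values with limma the split was 4 higher and 12 lower at a pseudocount of 0.1. In that fit all genes lay lower too, with a median slope of -0.043. The share of all genes called in it is not given here, so this split cannot be set against all genes. In the edgeR fit the median slope of the 49 was -0.02 log2 units per unit of score, beside -0.01 for all genes. Without wild-type replicate 3 the lower count fell to 0, without wild-type replicate 1 or Piwil4 R264W/R264W replicate 3 to 1, and without Piwil4 WT/R264W replicate 3 to 2; these are the testes with the lowest and the highest scores. Markers of other cells moved with the score as well: of those tested, 10 of 19 pachytene spermatocyte genes were higher and 1 lower, 1 of 15 early meiotic genes was higher and 8 lower, 2 of 13 spermatogonial markers were higher and 4 lower, and 1 of 14 Sertoli cell markers was higher and 4 lower. Of 9 Leydig cell markers 2 were higher and 0 lower, of 14 macrophage markers 2 higher and 1 lower, of 8 peritubular myoid cell markers 1 each way, of 9 endothelial markers 1 higher and 0 lower, and of 4 lymphocyte markers 0 passed. Their part in the slopes of the proteasome genes was not tested.

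The activators and the inhibitor parted into rising and falling genes. Psmf1 (ENSMUSG00000032869), the inhibitor PI31 that binds the 20S core, had the steepest slope of the members that passed the test. It was read at 93.4, 58.03 and 59.1 CPM in wild-type replicates 1 to 3, at 72.0, 64.4 and 50.3 CPM in the Piwil4 WT/R264W testes and at 59.6, 65.7 and 82.2 CPM in the Piwil4 R264W/R264W testes. The values were highest in the 2 testes with the highest scores and lowest in the testis with the lowest score, whatever the genotype. The slope was 0.18 ± 0.02 log2 units per unit of score (SE; edgeR adjusted p = 8.58e-05), or 1.66-fold over the range of 4.10 units.

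Psme4 (ENSMUSG00000040850), the activator of the testis proteasome whose promoter is printed above, was read at 930, 681 and 568 CPM in the wild-type testes, at 713, 665 and 554 CPM in the Piwil4 WT/R264W testes and at 664, 689 and 846 CPM in the Piwil4 R264W/R264W testes. Within each of the 3 genotypes its level followed the order of the score. Its slope was 0.15 ± 0.02 (edgeR adjusted p = 8.70e-05), or 1.54-fold over the range. Only 4 of the 49 members followed the score in order within all 3 genotypes (8.16%, beside 10.3% of all genes): Psme4 upwards, and Psmc6, Psmb3 and Psmb2 downwards. Psmb3 and Psmb2 are named here after their values were seen.

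Psme1 (ENSMUSG00000022216) and Psme2 (ENSMUSG00000079197) encode the 2 kinds of subunit of an activator ring that interferon induces in many cells. Psme1 was read at 13.5, 15.4 and 21.6 CPM in the wild-type testes, at 16.8, 16.6 and 20.2 CPM in the Piwil4 WT/R264W testes and at 16.5, 19.9 and 14.6 CPM in the Piwil4 R264W/R264W testes. Psme2 was read at 12.8, 15.1 and 16.9 CPM, at 15.4, 15.8 and 22.6 CPM, and at 17.6, 18.5 and 16.0 CPM in the same order. Both were lowest in wild-type replicate 1, the testis with the highest score. Their slopes were -0.12 ± 0.04 (edgeR adjusted p = 0.0374) for Psme1 and -0.12 ± 0.03 (adjusted p = 0.0166) for Psme2, or 0.705- and 0.706-fold over the range. Both calls were lost without wild-type replicate 1 (edgeR adjusted p = 0.203 for Psme1 and 0.0547 for Psme2), wild-type replicate 3 (0.198 and 0.0545) or Piwil4 WT/R264W replicate 3 (0.0739 and 0.129), and that of Psme1 also without Piwil4 R264W/R264W replicate 3 (0.107). Some counts of Psme2, which has the near copy Psme2b, were not whole, so its values are less certain, and Psme1 overlaps a coding gene on the opposite strand. Psme3, which forms a nuclear activator ring, had a slope of -0.04 ± 0.02 (edgeR adjusted p = 0.19), which passed the test only without Piwil4 WT/R264W replicate 1 (adjusted p = 0.024).

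**Figure D3:**
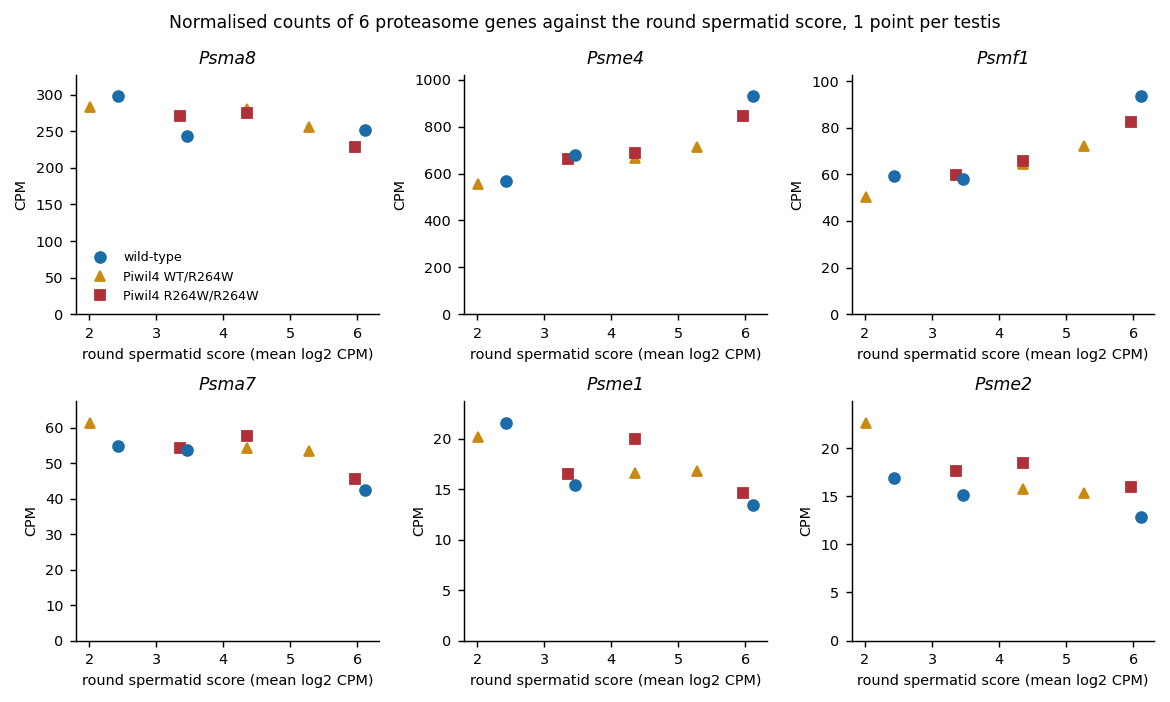
Normalised counts (CPM) of 6 proteasome genes against the round spermatid score (mean log2 CPM of 20 genes), 1 point for each of 9 testes with symbols for genotype; vertical axes start at 0. Psme4 and Psmf1 rise with the score, by 1.54- and 1.66-fold over its range, Psma7, Psme1 and Psme2 fall, and the slope of Psma8 (-0.06) did not pass the test.

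In the alpha ring Psma6 and Psma7 moved in opposite directions. Psma6 was read at 170, 102 and 122 CPM in the wild-type testes, at 148, 122 and 117 CPM in the Piwil4 WT/R264W testes and at 120, 128 and 151 CPM in the Piwil4 R264W/R264W testes, with the highest values in the 3 testes of highest score. Its slope was 0.13 ± 0.03 (edgeR adjusted p = 0.00646), a call lost without wild-type replicate 1 (adjusted p = 0.143). Psma7 was read at 42.3, 53.6 and 54.9 CPM in the wild-type testes, at 53.5, 54.3 and 61.4 CPM in the Piwil4 WT/R264W testes and at 54.1, 57.7 and 45.7 CPM in the Piwil4 R264W/R264W testes. It was lowest in the 2 testes of highest score and highest in the testis of lowest score, with a slope of -0.09 ± 0.03 (edgeR adjusted p = 0.0192) and a 0.772-fold level over the range. Psma1 fell as well, with a slope of -0.08 ± 0.02 (adjusted p = 0.0244). Both calls were lost without wild-type replicate 1 (edgeR adjusted p = 0.154 for Psma7 and 0.192 for Psma1), wild-type replicate 3 (0.0621 and 0.122) or Piwil4 R264W/R264W replicate 3 (0.0821 and 0.0679), and that of Psma1 also without Piwil4 WT/R264W replicate 3 (0.0635).

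Psma8 itself did not pass the test. It was read at 252, 243 and 298 CPM in the wild-type testes, at 255, 280 and 283 CPM in the Piwil4 WT/R264W testes and at 270, 275 and 228 CPM in the Piwil4 R264W/R264W testes. The 3 testes of highest score held 3 of the 4 lowest values, and the 2 testes of lowest score the 2 highest. The slope was -0.06 ± 0.02 (edgeR adjusted p = 0.0982, unadjusted p = 0.036), or 0.852-fold over the range. Without wild-type replicate 2 it passed the test, at -0.06 (edgeR adjusted p = 0.0485).

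The 3 standard catalytic genes stayed within a narrow range over the score, with slopes of 0.02 ± 0.02 for Psmb5 (edgeR adjusted p = 0.583), 0.03 ± 0.03 for Psmb6 (adjusted p = 0.349) and -0.0026 ± 0.023 for Psmb7 (adjusted p = 0.943). The slopes of the immunoproteasome genes were -0.23 ± 0.11 for Psmb8 (edgeR adjusted p = 0.154), -0.10 ± 0.13 for Psmb9 (adjusted p = 0.583) and -0.09 ± 0.06 for Psmb10 (adjusted p = 0.291). These standard errors were wide, and a slope as steep as that of Psme4 in either direction was not detectable for Psmb8 or Psmb9 at this depth. Of the 4 structural beta genes, Psmb3 alone passed the test, with a slope of -0.07 ± 0.02 (adjusted p = 0.0478). Its call was lost in 7 of 9 fits that left out 1 testis, with an edgeR adjusted p of up to 0.195. The other slopes had the same sign: -0.06 for Psmb1 (edgeR adjusted p = 0.0645), -0.06 for Psmb2 (0.123) and -0.03 for Psmb4 (0.334).

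The 19S particle also moved both ways. Among its 6 ATPases, Psmc2 had a slope of 0.12 ± 0.02 (edgeR adjusted p = 0.00171) and Psmc3 of 0.10 ± 0.02 (adjusted p = 0.00254), while Psmc6 had a slope of -0.08 ± 0.02 (adjusted p = 0.0126). Psmc2 was read at 286, 202 and 210.0 CPM in the wild-type testes, at 225, 247 and 188 CPM in the Piwil4 WT/R264W testes and at 218, 235 and 282 CPM in the Piwil4 R264W/R264W testes. It was highest in the 2 testes of highest score, and so was Psmc3, with 716 and 746 CPM there beside 529 to 678 CPM elsewhere. Psmc3 overlaps another coding gene on the opposite strand, and the share of its reads from that gene cannot be told apart. Psmc6 was lowest in the same 2 testes, with 76.5 and 76.0 CPM beside 83.5 to 98.7 CPM elsewhere. The call of Psmc6 was lost without wild-type replicate 1 (edgeR adjusted p = 0.0622), wild-type replicate 3 (0.081) or Piwil4 R264W/R264W replicate 3 (0.0536). Psmc1, Psmc4 and Psmc5 did not pass the test.

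Among the 11 other 19S genes, Psmd8 rose, with a slope of 0.09 ± 0.03 (edgeR adjusted p = 0.0206), and Psmd14, the enzyme that removes ubiquitin from a bound substrate, fell, with a slope of -0.08 ± 0.03 (adjusted p = 0.0385). The call of Psmd8 was lost in 5 of 9 fits that left out 1 testis, with an edgeR adjusted p of up to 0.117 (without Piwil4 WT/R264W replicate 3), and that of Psmd14 in 6 of 9, with up to 0.163 (without the same testis). The other 9 did not pass, nor did any of the 7 assembly chaperones, whose slopes ran from -0.09 (Psmg4) to 0.10 (Psmd10), nor Psmc3ip at 0.05 and Psme3ip1 at -0.01. Psmf1, Psme4 and Psmc2 were called in 20 of 20 settings tried, and Psma6 and Psmc3 in 19 of 20. The genes lower with the score were called in 6 (Psmb3) to 17 (Psmc6) of 20. In a fit that let the slope differ between genotypes, the difference passed an adjusted p under 0.05 for 0 of the 49 members and an unadjusted p under 0.05 for 0 of them (edgeR), beside 0.00634% of all 15771 genes (1 gene) at the adjusted threshold and 2.28% at the unadjusted one.

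**Figure D4:**
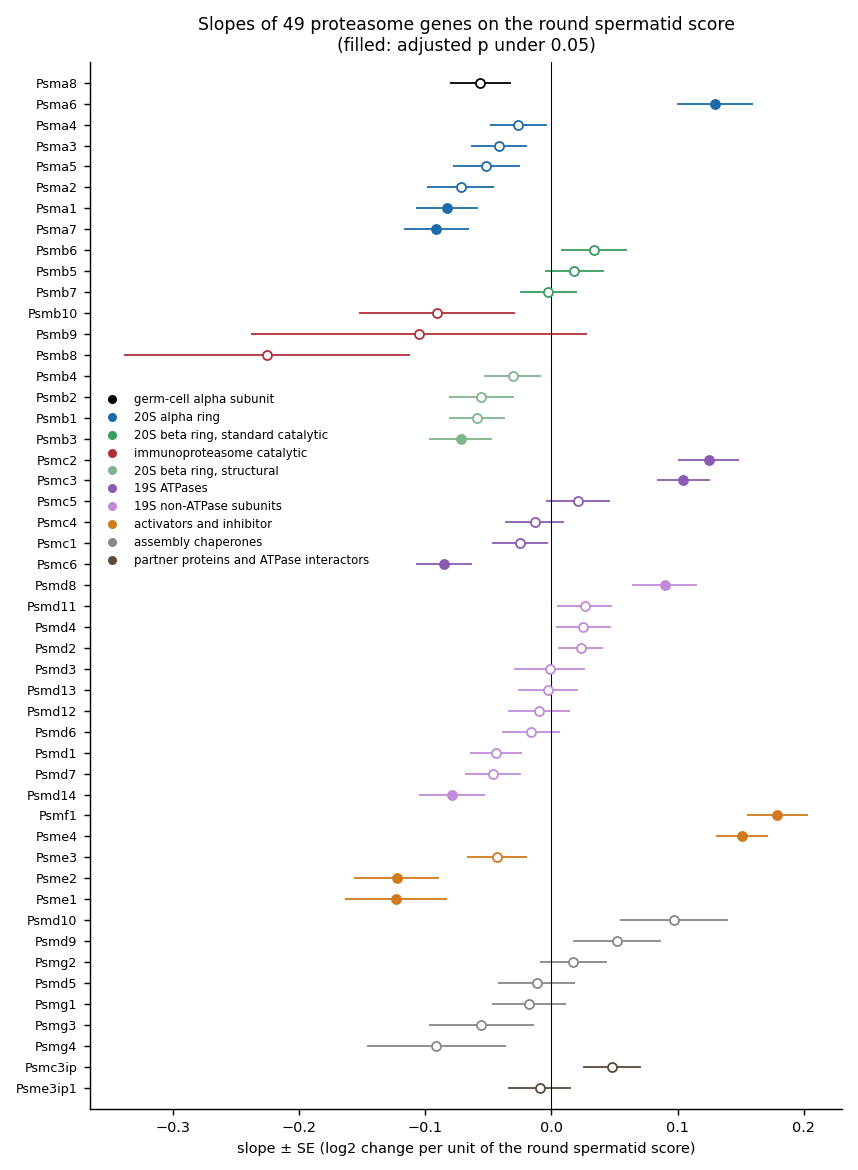
Slope on the round spermatid score with its SE (log2 change per unit of score, edgeR fit over 9 testes) for 49 proteasome genes grouped by role; filled points have an adjusted p under 0.05. The 13 filled points lie on both sides of 0, with Psmf1 (0.18) and Psme4 (0.15) at one end and Psme1 and Psme2 (both -0.12) at the other.

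Proteins that load, build or regulate the proteasome were examined in the same way. Of 22 such genes listed, 21 were measured and tested, and 4 rose and 2 fell with the score, beside the 18.2% and 9.78% of all genes given above. The steepest was Ngly1, which strips glycans from proteins bound for degradation and activates the transcription factor of the proteasome genes, with a slope of 0.21 ± 0.02 (edgeR adjusted p = 8.19e-06). It was followed by Akirin2, a factor in the nuclear import of proteasomes, at 0.09 ± 0.03 (adjusted p = 0.0152) and Rad23b, a shuttle for ubiquitinated proteins, at 0.08 ± 0.02 (adjusted p = 0.00488). Pomp, the maturation factor of the 20S core, had a slope of -0.08 ± 0.03 (edgeR adjusted p = 0.0243) and Zfand5, an activator that binds the particle, of -0.08 ± 0.02 (adjusted p = 0.016). Nfe2l1, the transcription factor that Ngly1 activates, had a slope of -0.05 ± 0.03 (adjusted p = 0.2) and is named after its value was seen.

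Between genotypes no proteasome gene passed the test. The comparison of Piwil4 R264W/R264W with wild-type testes asks what the homozygous allele changes at 3 weeks. Of the 49 members, 0 had an adjusted p under 0.05 and 0 an unadjusted p under 0.05 (edgeR), beside 0.0% and 1.26% of 15543 genes; DESeq2 also called 0 at the adjusted threshold. Log2 fold changes ran from -0.07 to 0.48 with a median of 0.03, beside -0.01 for all genes. The smallest p values belonged to Psme2 (log2 fold change 0.22 ± 0.14), Psmd10, a chaperone of the 19S base (0.28 ± 0.21), and Psmb10 (0.24 ± 0.19), each with an edgeR adjusted p of 0.9998. With single testes left out, these ran from 0.12 to 0.32 for Psme2, from 0.13 to 0.46 for Psmd10 and from 0.087 to 0.312 for Psmb10. Psmb10 was read at 3.31, 3.68 and 3.71 CPM in the wild-type and at 3.80, 5.05 and 3.78 CPM in the Piwil4 R264W/R264W testes. It was the 1 member whose groups did not overlap (2.04% of the members, beside 5.68% of all genes). The 2 ranges lay closer to each other than the level that 3 counts make.

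Against Piwil4 WT/R264W, the Piwil4 R264W/R264W testes again had 0 members at an adjusted and 0 at an unadjusted p under 0.05 (edgeR), beside 0.0% and 2.22% of 15463 genes, and DESeq2 called 0. Log2 fold changes ran from -0.31 to 0.19 with a median of -0.03, beside 0.01 for all genes. Psme4 (0.19 ± 0.13), Psma2 (-0.14 ± 0.11) and Psmd5, a chaperone of the 19S base (-0.13 ± 0.10), had the smallest p values, with an edgeR adjusted p of 0.948 each. With single testes left out, these ran from 0.07 to 0.27 for Psme4, from -0.23 to -0.09 for Psma2 and from -0.18 to -0.075 for Psmd5. With the round spermatid score as a covariate over all 9 libraries, they were 0.084 for Psme4, -0.096 for Psma2 and -0.119 for Psmd5. The edgeR adjusted p in that fit was 0.999 for each. Psmb2 was the 1 member without overlap (beside 7.15% of all genes), at 48.7 to 51.4 CPM in the Piwil4 R264W/R264W and 51.8 to 56.5 CPM in the Piwil4 WT/R264W testes.

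Piwil4 WT/R264W against wild-type gave 0 members at either threshold (edgeR), beside 0.0% and 1.11% of 15413 genes, and DESeq2 called 0. Log2 fold changes ran from -0.18 to 0.79 with a median of 0.03, beside -0.02 for all genes. The widest was that of Psmb9 (0.79 ± 0.46, edgeR adjusted p = 0.9998), which was read at 0.512, 0.294 and 0.820 CPM in the wild-type and at 0.717, 1.23 and 0.893 CPM in the Piwil4 WT/R264W testes, so that the groups overlapped. Psma2 (0.22 ± 0.13), which overlaps another coding gene on its own strand, and Psmb1 (0.13 ± 0.10) came next by p. With single testes left out, the log2 fold change ran from 0.52 to 1.21 for Psmb9, from 0.15 to 0.33 for Psma2 and from 0.07 to 0.19 for Psmb1. Psmg2, an assembly chaperone of the alpha ring, was the 1 member without overlap (beside 5.31% of all genes), at 33.3 to 40.085 CPM in the wild-type and 40.104 to 41.5 CPM in the Piwil4 WT/R264W testes. Psmb2 and Psmg2 are named after their values were seen. The 3 comparisons share libraries, so their values are given side by side only.

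Psma8 differed little between genotypes. Its level was 264.1 ± 29.5 CPM in wild-type, 273 ± 15.2 CPM in Piwil4 WT/R264W and 258 ± 25.9 CPM in Piwil4 R264W/R264W testes (SD, n = 3 each), and the ranges overlapped. The log2 fold change was -0.04 ± 0.11 for Piwil4 R264W/R264W against wild-type, -0.08 ± 0.09 for Piwil4 R264W/R264W against Piwil4 WT/R264W and 0.04 ± 0.10 for Piwil4 WT/R264W against wild-type (SE, edgeR adjusted p of 0.9998, 0.948 and 0.9998). The exact two-sided permutation test gave p = 0.9, 0.5 and 0.8 in the same order, where 0.1 is the smallest p possible. With single testes left out, the log2 fold change ran from -0.0846 to 0.064, from -0.1299 to -0.0013 and from 0.0124 to 0.1383 in that order, so its direction against wild-type did not hold for Piwil4 R264W/R264W. Among the wild-type testes alone the score ran from 2.43 to 6.11, so each comparison also holds the spread that goes with it.

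**Figure D5:**
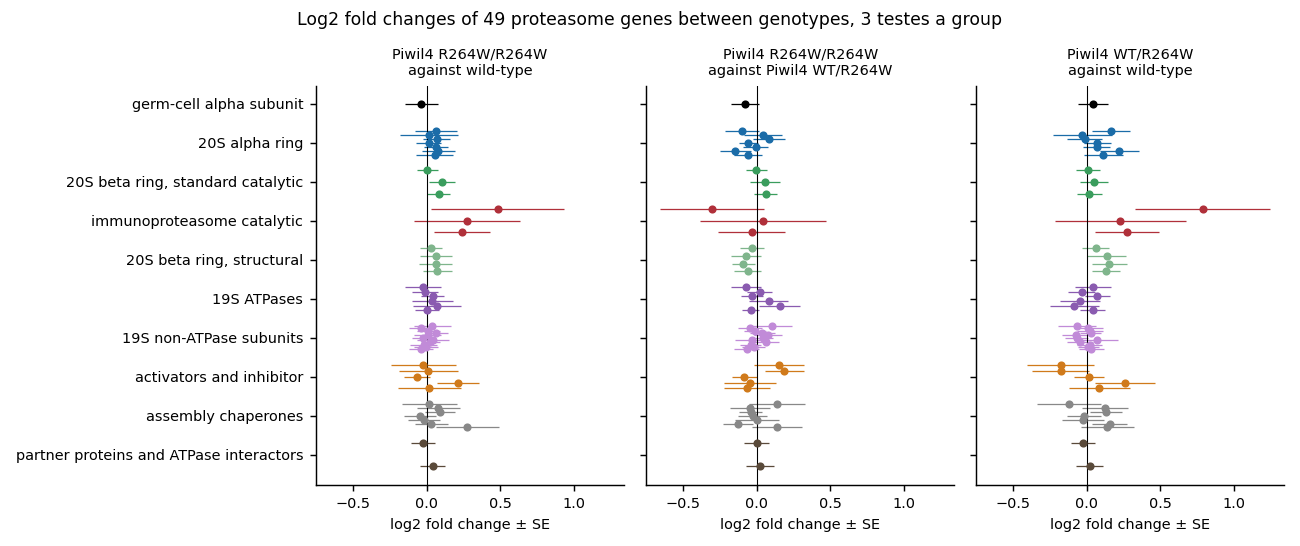
Log2 fold change with its SE for 49 proteasome genes in the 3 comparisons of genotypes (3 testes a group, edgeR), in rows by role and on one horizontal scale. Most points lie close to 0, the immunoproteasome genes have the widest errors, and none of the members passed an adjusted p under 0.05.

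Over the 9 testes, the log2 CPM of Psma8 was set beside that of 15770 other genes that passed the filter. The 5 with the highest Pearson r were Tex30 (0.969), Polr1f (0.968), Hormad1 (0.956), mt-Co3 (0.956) and H3f3b (0.955), of which Hormad1 encodes a protein of the unsynapsed chromosome axis in meiosis. Among the proteasome genes r was highest for Psmc6 (0.849) and lowest for Psme4 (-0.767), with Psma7 at 0.664. All points share their libraries and the stage of the testis, and these values are a description.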

How the data were processed

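RNA of whole testes from 9 mice, 3 of each Piwil4 genotype, was analysed. Libraries were made with the VAHTS mRNA-seq v2 kit. The authors filtered reads with fastp (version 0.18.0), assembled them with StringTie (version 1.3.1) and named the build mm39 and DESeq2 in the submitters' processing notes. The aligner, annotation release, counting tool and use of strand are not given in the sources used here. The deposited table holds FPKM values computed by the authors (2 decimals, scaled for transcript length and library) and estimated counts that the authors did not scale, of which 89.2% were whole. Of the 22337 genes, 22232 matched the GENCODE annotation of GRCm38, which has another build than the table, so coordinates are given for RefSeq promoter windows only. Counts of 7 members were not whole in at least 1 library, and 4 members overlap another coding gene on the same strand and 11 one on the opposite strand.

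Estimated counts were rounded to whole numbers. edgeR (version 4.0.16, R version 4.3.3) was run with filterByExpr and TMM. Two-sided quasi-likelihood tests, adjusted by Benjamini-Hochberg over all genes tested and called at 0.05, were made on 2 genotypes at a time and, for the score, on 9 testes with genotype as a factor. CPM are TMM-scaled. The score is the mean log2 CPM (prior count 1) of 20 round spermatid genes. It had r = 0.92 with the same score over pachytene spermatocyte genes and 0.996 with the first principal component of the 500 most variable genes, as descriptions. Standard errors were taken from the estimate and its test statistic. Exact permutation tests went through all permutations in Python (version 3.11.15), with ranks from SciPy (version 1.17.1).

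Named members were Psma8, Psma7, the catalytic genes, Psme1 to Psme4, Psmf1, the 6 steepest called slopes in each direction, the 3 smallest p values of each genotype comparison, the 3 steepest called slopes each way of the associated genes and the 5 genes with the highest r with Psma8; others are named by role, as ends of a range or, where said, after their values were seen. The members and lists were chosen with earlier results of these data known. The alternatives tried were no filter, at least 10 counts in every library, DESeq2 (version 1.42.0), edgeR with its size factors, limma (version 3.58.1) at pseudocounts of 0.1 and 1 on the log2 FPKM scale for genes of mean FPKM of at least 0.5, other scores, no genotype term, the score as a covariate, all 9 libraries in one fit, a 2-fold threshold, a replicate block and each library left out in turn. The replicate number was not taken to pair samples: of 9 pairs with the same number, 2 had a correlation of deviations over 0.1 (range -0.73 to 0.78).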

Additional observations from a re-analysis of the deposited data

How the results depend on the processing

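The counts of 0 members between genotypes at an adjusted p under 0.05 held under every alternative and leave-one-out fit run. At an unadjusted p under 0.05 (edgeR), the count against wild-type moved to 1 with the score as a covariate. This held for Piwil4 R264W/R264W and for Piwil4 WT/R264W. For Piwil4 WT/R264W against wild-type it also moved to 1 without wild-type replicate 3. On the score, the count of higher genes lay between 4 and 7 under all alternatives, while the lower count of 7 did not hold: it was 12 and 17 with limma on log2(FPKM + 0.1) and log2(FPKM + 1), 4 with the first principal component as the score and 0 to 9 when single testes were left out. With the replicate number as a block, 6 members were higher and 1 lower, and without pairing in the labels this is given as a value only; no other call on the genotypes changed under the block. The slope of Psma8 passed the test with limma on log2(FPKM + 1), at -0.0915 (adjusted p = 0.041), and without wild-type replicate 2, at -0.0639 (edgeR adjusted p = 0.0485), within a leave-one-out range of -0.0746 to -0.041. The log2 fold change of Psma8 between Piwil4 R264W/R264W and wild-type turned to 0.064 without wild-type replicate 3 and 0.0442 without Piwil4 R264W/R264W replicate 3 (leave-one-out range -0.0846 to 0.064). The slope of Psmb5 turned to -0.0147 and -0.0146 with limma at pseudocounts of 0.1 and 1, and that of Psmb7, close to 0, to 0.0027 with DESeq2, 0.0035 with its size factors, 0.0023 with the stricter filter and 0.002, 0.0053 or 0.0062 without wild-type replicate 3, Piwil4 WT/R264W replicate 1 or Piwil4 R264W/R264W replicate 3 (leave-one-out range -0.0185 to 0.0062). The causes of these changes were not tested. With limma at pseudocounts of 0.1 and 1 the median slope of all genes was -0.043 and -0.0355, beside -0.0148 in the main fit. The limma counts of lower members and the slopes of Psmb5 stand beside that shift. Over the results that answer a comparison, 186 alternative values kept direction and side of the threshold (counts within 1.5 times), 8 moved, 2 turned in sign and 2 newly passed. Over single genes, 485 kept both, 42 lost the call with the direction kept, 8 turned in sign, 3 moved and 1 newly passed. Depth limits Psmb8 and Psmb9, at 6 to 29 counts per library, and leaves Psmb11 and Psme2b without a test.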
